A study of Mus musculus with 6 samples.

Results

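Tuft cells are rare chemosensory cells of the gut epithelium. They sense luminal metabolites through a pathway shared with taste cells, in which G protein-coupled receptors act through gustducin and phospholipase C to open the channel Trpm5. They depend on the POU factor Pou2f3, and in the small intestine they release Il25 to drive type 2 immunity. In the colon, Dclk1 marks tuft cells in normal mucosa and a part of the cells of some tumors.

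The members described here were 9 tuft cell genes, namely Dclk1, Trpm5, Pou2f3, Il25, Gfi1b, Avil, Sh2d6, Sucnr1 and Gnat3. They were chosen by symbol: each gene probe whose gene name in the scanner output was one of these symbols was taken, and all probes of a gene were kept. This gave 17 probes for 9 genes, of 56605 gene probes for 37325 gene names in all.

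Gene expression was measured in tumor-bearing colon tissue of 6 C57BL/6 mice on one-color Agilent arrays, with 1 mouse per array. All 6 mice received azoxymethane (AOM, 10 μg/g), a carcinogen, and drank water with 2% dextran sodium sulfate (DSS), an agent that causes colitis, so that both groups carried colitis-associated tumors. A set of 3 mice was given oral RG@M-γ-CD at 30 μg/g, which carries 10 μg/g of RG and which the sample labels call "Rgnanomedicine (Test)", and 3 mice were given PBS. RG is regorafenib, a kinase inhibitor, and M-γ-CD is mannose-modified γ-cyclodextrin, which holds it. Treatment lasted 21 days and was followed by 14 days of observation before the colons were removed. The mice were males aged 6 to 8 weeks when obtained. The samples were whole pieces of tissue, so the genes were read from a mixture in which tuft cells are few.

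Each value is a log2 intensity after subtraction of that array's own 75th percentile, taken over gene probes. The scanner software marked from 49.6% to 55.2% of gene probes on an array as well above background. Precision was limited by having 3 arrays a group, for which the smallest two-sided p of an exact permutation test is 0.1. All 6 arrays came from 1 slide and 1 scan. Row 1 of the slide held the 3 RG@M-γ-CD arrays and PBS replicate 1, and row 2 held the other 2 PBS arrays. A fit with the slide row as a block therefore compares the 3 RG@M-γ-CD arrays with PBS replicate 1 alone. For a given probe it gives the same difference as row 1 by itself. The sample labels assign arrays 5, 6 and 7 to RG@M-γ-CD (replicates 1, 2 and 3) and arrays 8, 10 and 11 to PBS (replicates 1, 2 and 3). A heat map in the supplement of the study instead sets arrays 6, 7 and 8 against arrays 5, 10 and 11, with neither side named as treated, so differences of the tuft cell genes and of the named genes of their program are given first by the labels and then by that arrangement. Of all genes tested, 9003 were higher and 10084 lower with RG@M-γ-CD by the labels, while 6988 were higher and 12307 lower in arrays 6, 7 and 8.

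The array read the 9 genes unequally, and most of them were dim. Only Dclk1, Avil and Sh2d6 had probes well above background, 7 probes in all, and these 7 were so on all 6 arrays. The other 10 probes were well above background on no array. They include every probe of Trpm5, Pou2f3, Il25, Gfi1b, Sucnr1 and Gnat3, so the genes that define tuft cells most narrowly gave no usable level here. The label of a tuft cell signature is therefore carried by 3 genes, of which Avil is also known from sensory neurons and Dclk1 from neurons.

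The probes that carried signal are shown by their last 30 bases, 5′ to 3′, since these letters are what each value was read with. Capitals mark AATAAA, the polyadenylation signal, where the stretch holds it, and the coordinates are those of the array design on mm9.
Avil A_66_P140996, chr10:126457976-126458035, plus strand: catgttcaactttacaAATAAAgaggccat
Avil A_51_P166339, chr10:126453541-126454065, plus strand: agcagctaaagaacgagctgggagatgcaa
Sh2d6 A_66_P116348, chr6:72463717-72463776, minus strand: tgcctctccttagactgacttcttgtgtgt
Sh2d6 A_52_P523174, chr6:72465596-72465950, minus strand: gctgagaatggtagtctgctgggtcagcct
Dclk1 A_55_P2505946, chr3:55275120-55275179, plus strand: tttgacatgcaaccatgttaccctttcctg
Dclk1 A_55_P2148748, chr3:55266925-55266984, plus strand: ccacgctcgggcaagtcaccaagtccatca
Dclk1 A_51_P193036, chr3:55342815-55342874, plus strand: taaattgtaggtgaatgtggaatgaaatca

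The probes are 60 bases long. The second Avil probe was placed over 525 bases and the second Sh2d6 probe over 355 bases, so each crosses at least 1 exon junction, whereas the first probe of each gene lies in a single block. The letters AATAAA were found in 3 of the 17 probes, for Avil, Gfi1b and Gnat3, and in 9.77% of all gene probes. The 3 Dclk1 probes lie at different places along a long gene. A_55_P2505946 is listed by the design for 2 RefSeq transcripts, and A_55_P2148748, which lies 8.2 kb upstream, lists both of these. A_51_P193036 lies 67.7 kb downstream of the first, and none of the 4 RefSeq transcripts listed for it is among those 2. No mm9 gene annotation was used here, so exons and untranslated regions were not assigned.

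Avil encodes advillin, an actin-bundling protein of the villin and gelsolin family that is found in the microvillar tuft of these cells. Its probe A_66_P140996 read 4.63, 2.43 and 3.99 in RG@M-γ-CD replicates 1, 2 and 3 and 4.87, 4.26 and 4.02 in PBS replicates 1, 2 and 3. A single array, RG@M-γ-CD replicate 2, stood well below the other 5, and the groups overlapped. The mean was 3.68 ± 1.13 (SD, n = 3) with RG@M-γ-CD and 4.38 ± 0.44 (SD, n = 3) with PBS. Of the 3 RG@M-γ-CD arrays, 2 lay below every PBS array, but replicate 3 only narrowly, at 3.99 against 4.02. The log2 difference was −0.70 (standard error 0.57, 95% interval −2.07 to 0.66, adjusted p = 1.0 from limma). Its size depended on single arrays. Leaving out RG@M-γ-CD replicate 2 gave −0.074, leaving out replicate 1 gave −1.17 (adjusted p = 0.432 from limma), and leaving out PBS replicate 1 gave −0.46. With the slide row as a block it was −1.19. That is the comparison among the 4 arrays of row 1, with PBS replicate 1 as the only control. The junction probe A_51_P166339 gave 0.38, −1.75 and −0.38 with RG@M-γ-CD and 0.68, −0.10 and −0.20 with PBS. This is the same pattern, low in the same single array, with a log2 difference of −0.71. For this probe, leaving out RG@M-γ-CD replicate 1 gave −1.19 (unadjusted p = 0.0488, adjusted p = 0.45 from limma), and leaving out replicate 2 gave −0.13. In bulk tissue, fewer cells of a type and less RNA per cell cannot be told apart.

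Sh2d6 encodes an SH2-domain adapter protein that is used as a tuft cell marker in single-cell atlases. Its probe A_66_P116348 read −1.06, −2.09 and −1.83 with RG@M-γ-CD and −1.61, −1.54 and −1.56 with PBS. The 3 PBS arrays lay close together, and the RG@M-γ-CD arrays lay on both sides of them, with replicate 1 above and replicates 2 and 3 below. The mean was −1.66 ± 0.54 (SD, n = 3) against −1.57 ± 0.038 (SD, n = 3). The log2 difference was −0.095 (standard error 0.28, 95% interval −0.76 to 0.57, adjusted p = 1.0 from limma). Leaving out RG@M-γ-CD replicate 2 gave 0.12, and leaving out replicate 1 gave −0.40. With the slide row as a block, which again leaves PBS replicate 1 as the only control, it was −0.052. The junction probe A_52_P523174 gave −2.97, −3.88 and −3.63 with RG@M-γ-CD and −3.63, −3.28 and −3.35 with PBS, again with replicate 1 highest and replicate 2 lowest, and a log2 difference of −0.074.

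Dclk1 encodes doublecortin-like kinase 1, a microtubule-associated kinase. Its brightest probe A_55_P2505946 read −1.78, −0.32 and −1.26 with RG@M-γ-CD and −0.81, −1.09 and −1.31 with PBS. Here RG@M-γ-CD replicate 1 was lowest of all 6 arrays and replicate 2 highest, the reverse of Sh2d6. The mean was −1.12 ± 0.74 (SD, n = 3) against −1.07 ± 0.25 (SD, n = 3). The log2 difference was −0.047 (standard error 0.38, 95% interval −0.95 to 0.86, adjusted p = 1.0 from limma). Its sign changed with single arrays. Leaving out RG@M-γ-CD replicate 2 gave −0.44 and leaving out replicate 1 gave 0.28. It was also above 0 without replicate 3, at 0.023, and without PBS replicate 1, at 0.083, while the slide row as a block, or row 1 alone, gave −0.31. The probe upstream of it, A_55_P2148748, read −4.58, −3.13 and −3.84 with RG@M-γ-CD and −2.97, −3.60 and −4.00 with PBS. Its lowest value lay next to the lowest level well above background on that array, −4.62. The 3′ probe A_51_P193036 read −3.61, −2.55 and −2.60 with RG@M-γ-CD and −3.60, −1.89 and −2.97 with PBS, which is another order of the arrays. The log2 differences of these probes were −0.33 and −0.099, within their standard errors of 0.43 and 0.50.

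**Figure D1:**
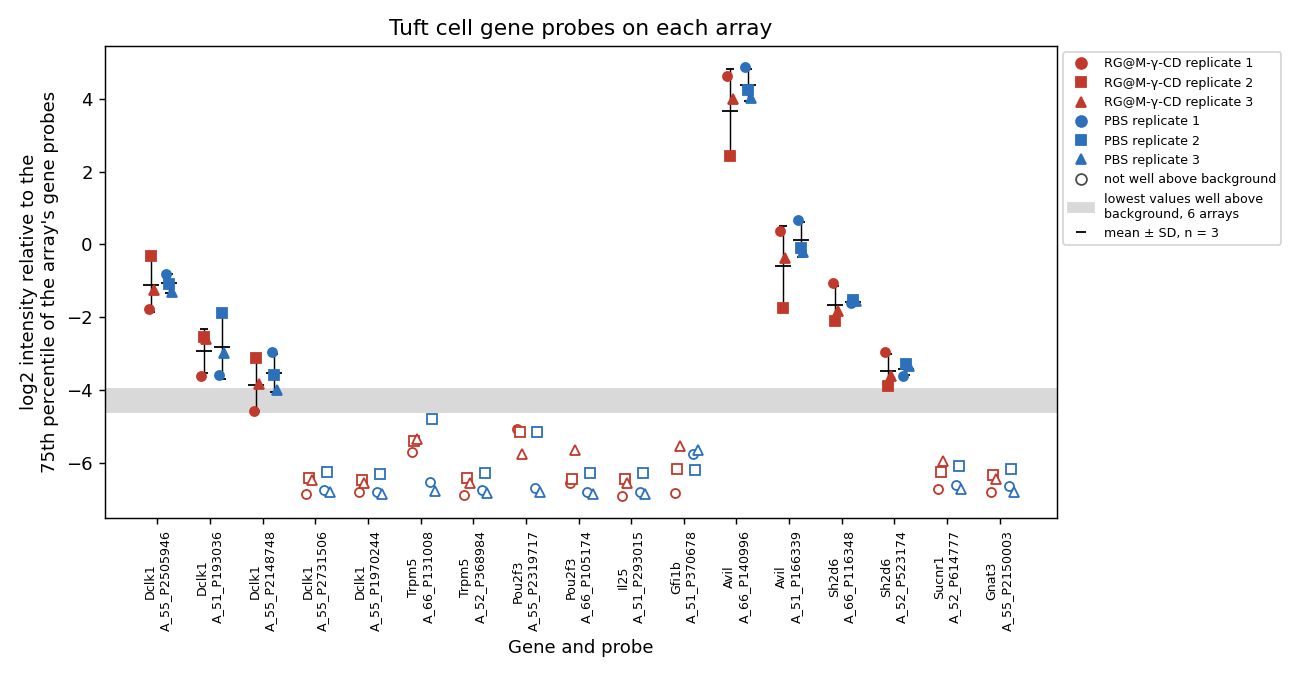
Values of the 17 tuft cell gene probes (x axis) on each of the 6 arrays, as log2 intensity minus the 75th percentile of each array (y axis). Filled points are well above background on all 6 arrays, with the mean ± SD of each group (n = 3) in black, and open points are well above background on none. The grey band spans the lowest values well above background on the 6 arrays, from −4.62 to −3.98, and the 10 dim probes lie under it.

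By the labels, no difference of the 3 genes passed the test. At an adjusted p below 0.05, limma called 0 of 3, beside 0% of the 19087 genes tested. At an unadjusted p below 0.05 it called 0 of 3, where 419 genes, or 2.2% of all tested, lay below that value. The groups failed to overlap in 0 of 3 genes, against 4.57% of all genes tested. All 3 differences were below 0, with a median of −0.095, while the median over all genes tested was −0.012. The intervals allow up to 1.58-fold higher or 4.19-fold lower Avil, and up to 1.82-fold higher or 1.94-fold lower Dclk1, with RG@M-γ-CD. For Sh2d6 they allow up to 1.49-fold higher or 1.70-fold lower.

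With arrays 6, 7 and 8 set against arrays 5, 10 and 11, the 3 genes did not move together. Dclk1 was 0.59 higher on the log2 scale in arrays 6, 7 and 8 (standard error 0.29, adjusted p = 0.319 from limma), with means of −0.80 ± 0.47 and −1.39 ± 0.35 (SD, n = 3 each). Sh2d6 was at −1.85 ± 0.24 and −1.39 ± 0.28 (SD, n = 3 each). Its difference was −0.46 (standard error 0.20, adjusted p = 0.307 from limma), and the arrays did not overlap. Avil was at 3.76 ± 1.24 and 4.30 ± 0.30 (SD, n = 3 each), a difference of −0.54 (adjusted p = 0.591 from limma). The median over all 19295 genes tested was −0.12 under this arrangement, so relative to it Dclk1 stood above and the other two below. Non-overlap was found in 1 of 3 genes, where 25.5% of all genes tested did not overlap. At an unadjusted p below 0.05, 0 of 3 were called against 16.5% of all genes, and at an adjusted p below 0.05, 0 of 3 against 0.0259%. The junction probe of Sh2d6 gave −0.51 (standard error 0.16, adjusted p = 0.269 from limma), and the upstream Dclk1 probe gave 0.75 (standard error 0.33, adjusted p = 0.285 from limma), whereas the 3′ Dclk1 probe gave −0.091.

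**Figure D2:**
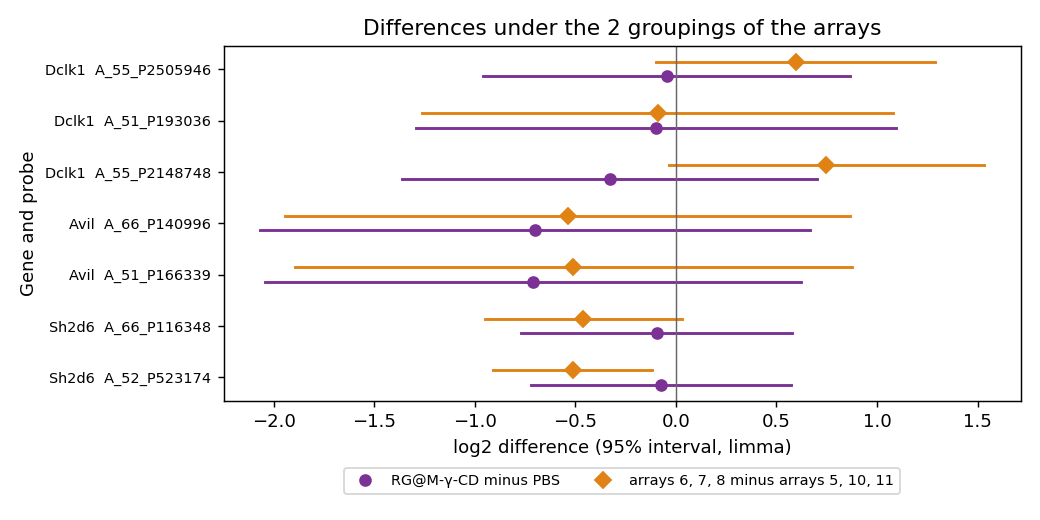
Log2 differences with 95% intervals from limma (x axis) for the 7 probes well above background (y axis), by the labels (purple) and for arrays 6, 7 and 8 minus arrays 5, 10 and 11 (orange). All 7 intervals by the labels include 0, and under the other arrangement the Sh2d6 probe A_52_P523174 has an interval that does not, from −0.91 to −0.12.

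Probes of the same gene followed each other over the 6 arrays for Avil and Sh2d6. Both Avil probes correlated at r = 0.995 and rho = 1 (exact permutation p = 0.00278 for each, adjusted p = 0.0111 over 8 relations), and r was 0.972 without the 2 arrays farthest from the median. Both Sh2d6 probes correlated at r = 0.956 and rho = 1 (exact permutation p = 0.00278 for each, adjusted p = 0.0111), with r of 0.748 without the 2 farthest arrays. For Dclk1, the first probe and the one upstream of it correlated at r = 0.913 and rho = 0.943 (exact permutation p = 0.0167 for each, adjusted p = 0.0444), and at 0.996 without the 2 farthest arrays. The 3′ probe gave r = 0.32 and rho = 0.543 with the first (exact permutation p = 0.553 and 0.297, adjusted p = 0.632 and 0.396). With the upstream probe it gave r = 0.199 and rho = 0.371 (exact permutation p = 0.689 and 0.497, adjusted p = 0.689 and 0.568), and r was −0.447 and −0.418 without the 2 farthest arrays. The gene-level result for Dclk1 given above is that of A_55_P2505946 alone.

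Between genes, the relations were weaker. Avil and Sh2d6 ran in parallel over the arrays at r = 0.761 and rho = 0.657 (exact permutation p = 0.075 and 0.175, adjusted p = 0.12 and 0.28), with r of 0.936 without the 2 farthest arrays. Dclk1 ran against Sh2d6 at r = −0.851 and rho = −0.714 (exact permutation p = 0.0389 and 0.136, adjusted p = 0.0778 and 0.272). That r was 0.244 once RG@M-γ-CD replicates 1 and 2 were left out, so the opposition rested on these arrays. Dclk1 and Avil gave r = −0.661 and rho = −0.257 (exact permutation p = 0.203 and 0.658, adjusted p = 0.27 and 0.658), and r turned to 0.984 without the same arrays. None of the between-gene relations passed after adjustment. A slide row or a group holds too few arrays for a value of its own.

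The dim genes gave readings near the floor of the array. Trpm5, the cation channel that ends the taste-type cascade, had one probe (A_66_P131008, chr7:150257434-150257456) with processed intensities of 10.3, 9.14 and 9.94 in RG@M-γ-CD replicates 1, 2 and 3 and of 4.79, 11.6 and 4.07 in PBS replicates 1, 2 and 3. A weaker mark of the scanner software, set where a spot is positive and significant over its own local background, was present for it on 3 RG@M-γ-CD and 2 PBS arrays. The design coordinates of this probe cover 23 bases, fewer than its length of 60. The second Trpm5 probe (A_52_P368984) had the weaker mark on 0 arrays. Pou2f3, the POU factor required for tuft cells, read 15.8, 10.9 and 7.53 with RG@M-γ-CD and 4.30, 8.95 and 3.98 with PBS on probe A_55_P2319717 (chr9:42932963-42933022). The weaker mark was set on all 3 RG@M-γ-CD arrays and on 1 PBS array for this probe, and on 2 and 0 arrays for the other, A_66_P105174. By comparison, Avil ranged from 2096 to 13270 in the same unit on A_66_P140996. No fold change is given for these genes, since both groups were under the level called well above background.

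Gfi1b, a zinc-finger repressor shared by tuft cells and by megakaryocyte and erythroid cells, had the weaker mark on 2 RG@M-γ-CD and 2 PBS arrays, with intensities from 4.35 to 8.98. Sucnr1, the succinate receptor, had it on 1 RG@M-γ-CD array only, with intensities from 4.20 to 6.60. Il25, the cytokine of the tuft cell circuit, and Gnat3, the gustducin alpha subunit, had it on 0 arrays, with ranges of 3.88 to 4.44 and 4.02 to 4.84. Both remaining Dclk1 probes, A_55_P2731506 and A_55_P1970244, had it on 1 RG@M-γ-CD array each. Over the 10 dim probes the weaker mark was set 13 times of 30 on RG@M-γ-CD arrays (43.3%) and 5 times of 30 on PBS arrays (16.7%). Over all 22154 gene probes that were well above background on no array the shares were 27.9% and 27.5%. These 10 probes belong to 7 genes and share the same 6 arrays, so they are no independent trials and the contrast was not tested.

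Reference promoter windows of RefSeq on GRCm38.p6, from 250 bases before to 50 after a transcript start, were given for 7 of the 9 genes in 8 windows, with 2 for Dclk1 and none for Il25 and Pou2f3. Both strands were searched for the octamer ATGCAAAT, which POU factors such as Pou2f3 bind, and for AATCACNGC, a motif of the Gfi family. The octamer occurred in 1 of the 8 windows and in 1.74% of all 32851 windows. The Gfi motif also occurred in 1 of the 8 windows, and in 0.919% of all. Both windows are shown around the motif, in capitals, because Pou2f3 and Gfi1b are themselves members.
Sucnr1, chr3:60081795-60081868, plus strand, octamer 48 to 41 bases before the start: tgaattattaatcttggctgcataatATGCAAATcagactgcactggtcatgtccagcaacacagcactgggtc
Avil, chr10:127000648-127000677, plus strand, Gfi motif on the other strand 51 to 43 bases before the start: ggctaggttgGCTGTGATTggccagagcta
These matches are letters in a reference sequence. Binding was not measured, and Pou2f3 and Gfi1b were both under the level called well above background.

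Other genes of the tuft cell program were read as well. Of 10 genes of the taste-type cascade and its partners, 7 were tested and Gnb3 was well above background on no array. None passed an unadjusted p below 0.05, and the median difference was −0.077. Gng13, the gamma subunit that pairs with gustducin, read −2.40, −3.85 and −1.68 with RG@M-γ-CD and −2.54, −3.19 and −4.17 with PBS, a log2 difference of 0.66 (standard error 0.64, adjusted p = 1.0 from limma). Plcg2, a phospholipase C found in tuft cells and in leukocytes, was at 2.12 ± 0.45 and 2.48 ± 0.17 (SD, n = 3 each), a difference of −0.36 (standard error 0.25, adjusted p = 1.0 from limma). The groups overlapped for both genes. Under the heat map's arrangement the median was 0.062, with Gng13 at 0.57 and Plcg2 at −0.23.

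Of 9 genes for the enzymes and channels through which tuft cells act, 7 were tested and none had an unadjusted p below 0.05, with a median difference of −0.014. The list holds the enzymes of leukotriene, prostaglandin and acetylcholine synthesis. Alox5, which starts leukotriene synthesis, was at −2.96 ± 0.34 and −2.74 ± 0.88 (SD, n = 3 each), a difference of −0.21 (standard error 0.45). Its partner Alox5ap was at −0.43 ± 0.73 and −0.29 ± 0.18 (SD, n = 3 each), a difference of −0.14 (standard error 0.37). Both had an adjusted p of 1.0 from limma, and Kcnj16 was well above background on no array. Leaving out single arrays moved the median between −0.10 and 0.14. With arrays 6, 7 and 8 set together it was −0.044, with Alox5 at −0.51 and Alox5ap at −0.55.

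Tuft cells also carry signaling genes that are better known from leukocytes, such as Ptpn6, Vav1 and Ptprc. Of 18 such genes 16 were tested, and 12 of these were lower and 4 higher with RG@M-γ-CD, with a median of −0.23. Under the heat map's arrangement 17 were tested, 9 higher and 8 lower, and the median was 0.020, so the list did not lean to 1 side there. With the slide row as a block the median was −0.46. The RG@M-γ-CD and PBS arrays did not overlap for 2 of the 16 genes, Inpp5d and Siglecf, against 4.57% of all genes tested. By the labels, Siglecf was the only one below an unadjusted p of 0.05 (limma), against 1.33% of all genes tested in that direction. This sialic acid-binding lectin of eosinophils and tuft cells read −4.14, −4.16 and −3.90 with RG@M-γ-CD and −3.83, −3.61 and −3.57 with PBS. All 3 RG@M-γ-CD arrays lay under all 3 PBS arrays, close to the background level. Siglecf was well above background on 2 RG@M-γ-CD and 3 PBS arrays, so it was tested only through PBS, where it was higher. Its unadjusted p and its separation are therefore no support for a difference. The log2 difference was −0.40 (standard error 0.16) and its adjusted p was 1.0 from limma. The heat map's arrangement gave −0.19 (unadjusted p = 0.381 from limma). These genes are also expressed by the leukocytes of the tissue. The summed level of 10 macrophage and myeloid markers, all detected, was 7.86, 6.28 and 6.45 with RG@M-γ-CD and between 7.53 and 7.73 with PBS. All 10 were lower with RG@M-γ-CD, with a median of −0.55. Of these, 1 was below an unadjusted p of 0.05 with groups that did not overlap, namely Cd14 at −0.41 (unadjusted p = 0.0486 from limma). It did not pass after adjustment. Over all genes tested, 1.33% lay lower at that level and 4.57% did not overlap. The part of such cells in the values of the signaling genes was not tested.

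The widest list held 22 structural and other genes of the tuft cell program, including Vil1, Krt18, Krt23, Lect2 and Nrep, of which 18 were tested. By the labels 4 were higher and 14 lower, with a median of −0.15. At an unadjusted p below 0.05, 1 of 18 was higher, against 0.864% of all genes. That gene, Espn, encodes espin, an actin-bundling protein of microvilli. It read 0.88, 1.14 and 1.36 with RG@M-γ-CD and 0.27, 0.77 and 0.75 with PBS. The groups did not overlap for it, the only 1 of the 18 by the labels, against 4.57% of all genes tested. Its log2 difference was 0.53 (standard error 0.22, adjusted p = 1.0 from limma). The heat map's arrangement gave 0.12 (unadjusted p = 0.685 from limma). The list's median turned to 0.15 when RG@M-γ-CD replicate 2 was left out. In arrays 6, 7 and 8 against arrays 5, 10 and 11, 7 of the 18 lay lower at an unadjusted p below 0.05 and 0 higher, with 0 at an adjusted p below 0.05 in limma, a median of −0.42 and 8 that did not overlap. Over all genes, 8.79% lay lower at an unadjusted p below 0.05, the median was −0.12 and 25.5% did not overlap.

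The type 2 circuit joins tuft cells to innate lymphoid cells, with Il25 acting on these cells and Il13 acting back on the epithelium. Of 22 genes 15 were tested, and Il4, Il5, Il9, Il13, Tslp and Cysltr2 were well above background on no array. No unadjusted p among the 15 was below 0.05, and their median was −0.10. Il1rl1, the Il33 receptor, read 2.17, −2.16 and 2.24 with RG@M-γ-CD and 2.04, 2.47 and 2.97 with PBS. As for Avil, the low array was RG@M-γ-CD replicate 2, and the log2 difference of −1.74 had a standard error of 1.17 (adjusted p = 1.0 from limma). Retnlb, a goblet cell protein induced by Il13, was at 0.18 ± 1.22 and 1.52 ± 1.68 (SD, n = 3 each), a difference of −1.34 (standard error 0.95, adjusted p = 1.0 from limma). In arrays 6, 7 and 8 against the others, the median was −0.38, with Il1rl1 at −1.83 and Retnlb at −0.50. At an unadjusted p below 0.05 in limma, 2 of the 15 lay lower, against 8.79% of all genes, whose median was −0.12.

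Of 10 regulators of secretory and tuft cell fate, 9 were tested, 2 higher and 7 lower, with none below an unadjusted p of 0.05 and a median of −0.15. Sox4, which supports tuft cell specification, was at 4.99 ± 0.77 and 5.37 ± 0.10 (SD, n = 3 each), a difference of −0.38 (standard error 0.38). Sox9 was at 3.43 ± 0.37 and 3.76 ± 0.16 (SD, n = 3 each), a difference of −0.33 (standard error 0.23). Both had an adjusted p of 1.0 from limma. The median turned to 0.11 with the slide row as a block and within row 1, where PBS replicate 1 is the only control. With arrays 6, 7 and 8 set together it was −0.14, with Sox4 at −0.67 and Sox9 at −0.49. Neurog3, the enteroendocrine factor, was well above background on no array.

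Other cell types in the tissue varied between the same arrays. The summed level of 7 smooth muscle markers was 6.69 in RG@M-γ-CD replicate 1, 9.38 in replicate 2 and 9.64 in replicate 3, while the PBS arrays lay between 7.62 and 7.84. The sum of 9 neuron and glia markers, all detected, was 2.88, 4.29 and 4.30 with RG@M-γ-CD and between 3.30 and 3.48 with PBS. The sum of 7 of 8 enteroendocrine markers was 3.51, 6.65 and 5.83 with RG@M-γ-CD and between 4.75 and 5.72 with PBS, with Scgn detected nowhere. RG@M-γ-CD replicate 1 was thus lowest for all of these sums and for Dclk1. Replicate 2 was lowest for Avil and for the myeloid sum, which Lyz2 leads. Of the single myeloid markers, Csf1r, Lyz2, C1qa, S100a8 and S100a9 were lowest in replicate 2. Adgre1, Cd68, Cd14 and Mrc1 were lowest in replicate 3, and Itgam was highest in replicate 2. The part of these cell types in the values of the tuft cell genes was not tested.

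**Figure D3:**
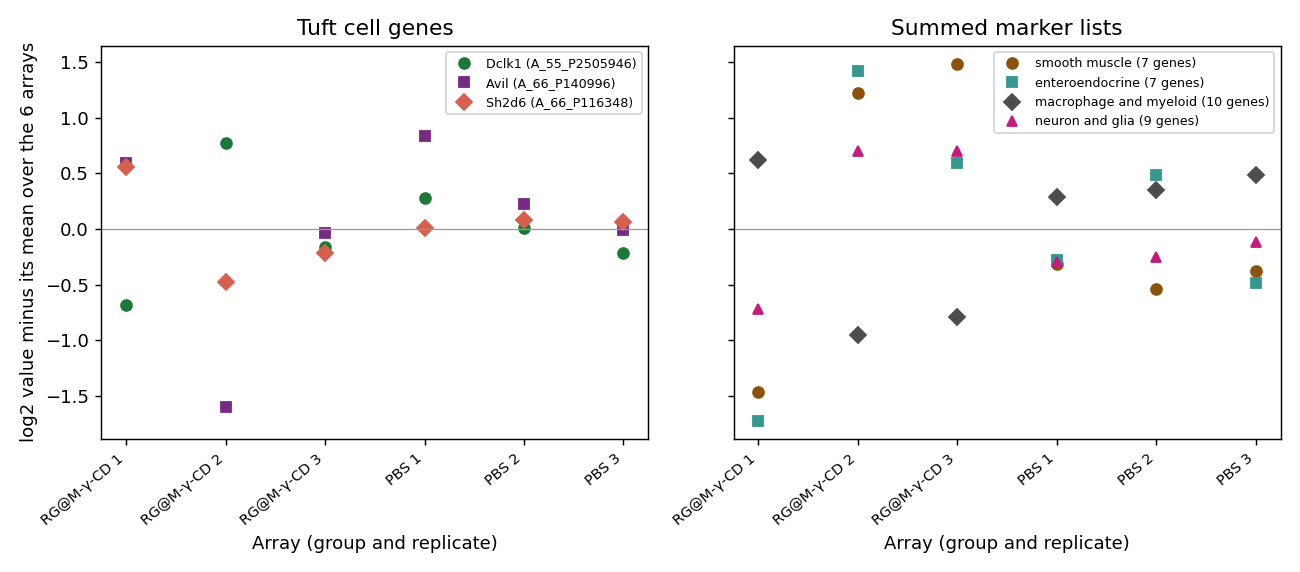
Log2 values of Dclk1, Avil and Sh2d6 (left) and log2 summed levels of 4 marker lists (right), each minus its mean over the 6 arrays (y axis), for the arrays by group and replicate (x axis). Avil is lowest in RG@M-γ-CD replicate 2, where Dclk1 is highest, and the marker lists spread most among the 3 RG@M-γ-CD arrays.

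The mean of Avil, Dclk1 and Sh2d6, each centred over the 6 arrays, was 0.16, −0.44 and −0.14 in RG@M-γ-CD replicates 1, 2 and 3 and 0.37, 0.10 and −0.056 in PBS replicates 1, 2 and 3. This mean followed Avil (r = 0.95 over the 6 arrays), which varied most, and Sh2d6 (r = 0.691), but not Dclk1 (r = −0.44). Among 18115 other genes well above background on all arrays, the 5 with the most similar pattern were Pla2g2d, a secreted phospholipase A2 (r = 0.989), a transcript known only by an identifier (r = 0.988), Pld4, a phospholipase D family member (r = 0.987), Cd53, a leukocyte tetraspanin (r = 0.985), and Arl5c, a small GTPase (r = 0.982). A correlation of at least 0.9 was reached by 166 genes. Of the lists, Ptpn6 ranked highest at 69 (r = 0.938), and Ptprc ranked 130 (r = 0.914). The points are 6 arrays that share their composition differences, and these values are descriptions.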

How the data were processed

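For each array the authors deposited the scanner output of Agilent Feature Extraction 10.7.1.1 (version per the submitters' processing notes), whose spot intensities are background-subtracted and detrended but not normalized between arrays. They also deposited a table of log2 values whose columns share one distribution, with the method of normalization not given in the sources used here, and which was used as an alternative. Control spots and 790 outlier spots over the 6 arrays were left out, 0 gene spots were saturated, spots of a probe were averaged as log2 values, and each array's 75th percentile was subtracted. Probe symbols were updated through accessions for 58.3% of gene probes, except for the members. A probe was tested when well above background (at least 0.5 of its spots) on all 3 arrays of a group, and a gene was its brightest such probe. The 7 probes with a missing value were dropped. Differences were fitted with limma 3.58.1 in R 4.3.3, with Benjamini-Hochberg adjustment over all genes and a threshold of 0.05, after a test on simulated data. Correlations used SciPy 1.17.1. Members, lists and motifs were chosen with earlier results of these data known. Named genes of a list were those at an unadjusted p below 0.05, otherwise the 2 with the largest difference. The p-values of group differences measure the spread between arrays, and with 1 mouse per array the spread of mice and of arrays cannot be separated. The permutation p-values of the correlations concern pairings over the 6 arrays and no group difference.

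Replicate numbers were shared between groups, but same-numbered arrays deviated from their group means with correlations of −0.250, −0.233 and 0.136, so the numbers were not read as pairs. The alternatives were quantile normalization, normexp with an offset of 50, the deposited table, no filter, only probes well above background on every array, averaging a gene's probes, outliers kept, a replicate block, the methods' t-test, the heat map's arrangement, the slide row, and leaving out each array.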

Additional observations from a re-analysis of the deposited data

How the results depend on the processing

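Over 18 alternatives, 0 of the tested tuft cell genes passed an adjusted p of 0.05 or an unadjusted p of 0.05 in limma or in the methods' t-test. Avil kept its direction in all 18, between −1.19 and −0.074. Dclk1 was above 0 in 4, with 0.59 in the heat map's arrangement, and leaving out single arrays gave −0.44 to 0.28 for it. Leaving out single arrays gave −0.40 to 0.12 for Sh2d6, −0.40 to −0.0095 for the median of the tested genes, and 0 to 206 for all genes past the adjusted threshold, where the 206 came without RG@M-γ-CD replicate 1. In the heat map's arrangement the median was −0.46, and 5 genes passed in all. The cause was not tested.

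Some of the lesser probes also differed in sign between settings. In the heat map's arrangement Dclk1 A_55_P2148748 was at 0.75. With the slide row as a block, which leaves PBS replicate 1 as the only control, Dclk1 A_51_P193036 was at 0.68 and Sh2d6 A_52_P523174 at 0.13. Leaving out single arrays gave −0.49 to 0.36 for Dclk1 A_51_P193036, −0.69 to 0.037 for Dclk1 A_55_P2148748, −1.19 to −0.13 for Avil A_51_P166339 and −0.34 to 0.12 for Sh2d6 A_52_P523174. The slide row as a block moved the median of all genes to 0.097, that of the leukocyte-type signaling genes to −0.46 and that of the fate regulators to 0.11.

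With the replicate block, Avil stayed at −0.70, Dclk1 at −0.047 and Sh2d6 at −0.095, with 0 genes past the threshold, and it changed no call. Signal over background limited what could be read: 10 of 17 probes were never well above background, and 3 arrays per group left wide intervals.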

Other observations

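The remaining cell type lists describe the tissue in which the tuft cell genes were read. All 10 colon epithelium markers were detected, with Krt8 and Lgals4 the brightest, and their summed log2 level ran from 10.01 to 10.44 with RG@M-γ-CD and from 9.87 to 10.49 with PBS. All 7 goblet cell markers were lower with RG@M-γ-CD, with a median of −0.34 and 0 below an unadjusted p of 0.05 in limma, while in arrays 6, 7 and 8 against arrays 5, 10 and 11 there were 4 higher and 3 lower, with a median of 0.17. Muc2 and Spink4 were the brightest, and the sums ran from 9.10 to 10.74 and from 9.82 to 10.85. The lymphocyte markers (7 of 9 tested, Jchain and Cd79b brightest) summed to between 5.16 and 5.61 and between 4.94 and 5.28. Jchain, which leads that sum, was 0.49 higher with RG@M-γ-CD, while the other 6 were lower, and the list's median was −0.47. Among these, Cd3g, a T cell receptor subunit, was at −0.64 with groups that did not overlap (unadjusted p = 0.0385, adjusted p = 1.0 from limma). Over all genes tested, 4.57% did not overlap and 1.33% lay lower at an unadjusted p below 0.05 in limma. The mast cell and basophil markers (7 of 9 tested, Mcpt4 and Kit brightest) summed to between 3.05 and 3.82 and between 3.14 and 4.51.

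Of the megakaryocyte and erythroid markers, which share Gfi1b with tuft cells, 3 were tested, with Hba-a1 and Pf4 the brightest, and Gata1, Itga2b and Gp9 were among those well above background on no array. The 3 summed to between 3.94 and 5.13 with RG@M-γ-CD and between 3.71 and 5.13 with PBS. Hba-a1 leads that sum. Hba-a1 and Alas2 were 0.31 and 0.54 higher with RG@M-γ-CD, and the list's median was 0.31. Pf4, a platelet chemokine, went the other way, at −0.48 with groups that did not overlap (unadjusted p = 0.0285, adjusted p = 1.0 from limma). Of all genes tested, 4.57% did not overlap and 1.33% lay lower at an unadjusted p below 0.05 in limma. Of the exocrine pancreas markers 3 of 9 were tested, with Cela1 and Ctrb1 the brightest, at sums between 6.02 and 7.0 and between 6.17 and 6.80. Cela1 leads that sum. The other genes tested, Prss2 and Ctrb1, did not overlap between groups, against 4.57% of all genes. Both passed the filter only through PBS, where they were higher, so their separation is no support for a difference. Prss2, a trypsinogen, was well above background on 0 RG@M-γ-CD and 3 PBS arrays. It was thus tested only through the group where it was high, and no p is given for it. Its PBS arrays read −3.05, −0.28 and −4.34 (SD 2.07, n = 3), with replicate 2 far above the others. By their mean, the bound was 3.43-fold lower with RG@M-γ-CD, and it rests largely on that replicate. PBS replicate 3, at −4.34, lay within the range of the lowest levels well above background on the RG@M-γ-CD arrays, from −4.62 to −4.16. The bound is a description and no support for a difference. Ctrb1, a chymotrypsinogen, was at −4.32 ± 0.38 and −2.16 ± 2.44 (SD, n = 3 each). Its log2 difference was −2.16 (standard error 1.13, unadjusted p = 0.101 from limma). The PBS arrays read −3.98, 0.61 and −3.10, so replicate 2 made most of it. PBS replicate 1 lay next to the highest RG@M-γ-CD array, at −4.07. The bound for Prss2 sets the PBS mean against the lowest level well above background on each RG@M-γ-CD array. Cd14, Cd3g, Pf4, Prss2 and Ctrb1 were named after their values were seen.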
